A study of Rattus norvegicus with 20 samples.

Results

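The matrix metalloproteinases and their tissue inhibitors were followed here as a set of 10 genes in the brain and spinal cord of rats with a cervical injury. The set was chosen by gene symbol and held 7 metalloproteinases (Mmp2, Mmp3, Mmp8, Mmp9, Mmp12, Mmp14 and Mmp19) and 3 inhibitors (Timp1, Timp2 and Timp3). Each symbol occurred once among the 30443 genes listed, and all 10 were among the 15210 genes that reached 1 FPKM in at least 1 of the 20 RNA-seq libraries. FPKM, a fragment count divided by the length of the transcript and by the mapped reads of the library, is a level per length, so levels can be set side by side between genes. Mmp3 passed that filter through 1 library only and Mmp8 through 4 libraries, and both were at or near the lowest value listed, 0.1, in most of the others.

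The animals were adult female wild-type Long-Evans rats, about 6 to 8 months old and 275 to 350 g, with a hemicontusion of the cord at cervical level 4 made by a displacement of 0.7 mm. All 4 animals, controls included, had an electrode array put into the motor cortex on the side opposite the injury 2 weeks after it. In the 2 stimulated animals, stimulation began 3 weeks after injury and ran for 5 hours a day at 10 Hz and 80% of the movement threshold, for 5 days by the study's methods and about 1 week by the labels. The 2 control animals were connected to a sham device and received no current, and no animal was without injury or implant. Each animal gave 1 library from each of 5 regions: the subcortical white matter beneath the implant (region 1), its counterpart in the other hemisphere (region 2), and the cord rostral to the injury (region 3), at the injury (region 4) and caudal to it (region 5). The study lists read numbers for each library, but FPKM values carry no count of reads for a gene, so precision rests on the spread between libraries. For regions, that spread is pooled over all 20 libraries of the 4 animals, and libraries of 1 animal are treated as independent. It includes differences between stimulated and control animals. For stimulation, it is the spread within the groups of 2 animals in a region.

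Metalloproteinases are zinc-dependent proteases that cut collagens, proteoglycans and other proteins of the extracellular matrix, most of them made as inactive precursors that other proteases open. Tissue inhibitors bind the active site and stop the cut, so what a tissue degrades depends on the precursors, on their activators and on the inhibitors together. After spinal cord injury this family is known for its part in the opening of the blood-spinal cord barrier, the entry of leukocytes and the remodelling of the scar. Transcript levels do not measure the activity of the enzymes.

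Before the results, some libraries stood apart. The region 2 library of stimulated animal 2 had Gfap, an intermediate filament of astrocytes, at 678 FPKM, against 70.1 to 91.4 FPKM in the other 3 libraries of region 2. Cd68, a lysosomal marker of macrophages, was at 11.8 FPKM there against 0.514 to 0.695 FPKM. The region 1 library of the same animal had S100a9, a neutrophil protein, at 77.4 FPKM against 0.1 to 1.13 FPKM in the other 3. The white matter libraries also went against their tissue name, since Slc17a7, the vesicular glutamate transporter of cortical excitatory neurons, stood at 225 to 329 FPKM in region 1 and 245 to 277 FPKM in region 2 and at most at 11.8 FPKM in any cord library. Oligodendrocyte markers were present in all regions, with sums of 662 to 2778 FPKM in the white matter and 7095 to 10380 FPKM in the cord. Col1a2 was listed at 0.1 in all 20 libraries although the other collagen markers were not, so the fibroblast sums below lack it.

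Mmp14 (ENSRNOG00000010947), the membrane-anchored protease that opens the Mmp2 precursor at the cell surface, had the highest level of the 7 metalloproteinases in 18 of the 20 libraries. In region 4 it was listed at 11.2 and 9.70 FPKM in the control animals and 9.72 and 7.18 FPKM in the stimulated ones. In region 3 the corresponding levels were 4.52, 4.05, 4.75 and 3.86 FPKM. Every library at the injury was above every library rostral to it. In region 1 the levels were 5.13, 4.30, 6.86 and 15.3 FPKM, and in region 2 they were 1.21, 1.18, 1.12 and 3.88 FPKM, with stimulated animal 2 highest in both. Region 5 lay between 7.13 and 10.2 FPKM and overlapped region 4.

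Mmp2 (ENSRNOG00000016695), gelatinase A, which cuts denatured collagen and basement membrane, was likewise highest on average in region 4 and lowest in region 2, and its mean was below that of Mmp14 in each region. Its regions 4, 1 and 5 overlapped, with means of 5.97, 5.60 and 5.40 FPKM. At the injury it was at 6.88 and 6.46 FPKM in the controls and 6.77 and 3.77 FPKM in the stimulated animals. Rostral to it the levels were 2.80, 1.64, 2.15 and 2.08 FPKM. The lowest library of region 4, that of stimulated animal 2, was still above the highest of region 3. Under the implant Mmp2 was at 3.92, 3.86, 4.96 and 9.67 FPKM, and in the other hemisphere at 0.808, 0.751, 0.718 and 3.63 FPKM. Without stimulated animal 2, the mean was 4.25 ± 0.616 FPKM (SD, n = 3) in region 1 and 0.759 ± 0.0456 FPKM in region 2.

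Mmp19 (ENSRNOG00000006778), a protease of wide tissue distribution, was highest at the injury, at 6.94, 5.48, 6.31 and 4.64 FPKM, against 2.85, 1.58, 2.42 and 1.94 FPKM in region 3. These groups did not overlap either. In region 1 it was at 1.79, 1.60, 2.33 and 5.19 FPKM and in region 2 at 0.542, 0.326, 0.347 and 2.32 FPKM, where the library of stimulated animal 2 reached into the range of region 1. Mmp14, Mmp2 and Mmp19 together made up 50.6 to 97.3% of the summed FPKM of the 7 metalloproteinases in a library.

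Mmp9 (ENSRNOG00000017539), gelatinase B, which neutrophils store and many cells make when activated, had a different order of regions. It was highest under the implant, at 3.35 and 2.13 FPKM in the controls and 1.67 and 4.37 FPKM in the stimulated animals, and next in region 2, at 1.62, 0.803, 1.01 and 0.889 FPKM. Regions 1 and 2 did not overlap. In region 3 it was at 0.1 in 3 of 4 libraries, and in region 5 it did not exceed 0.191 FPKM. At the injury its values were 2.77, 0.276, 0.398 and 0.1 FPKM, so the region 4 mean of 0.885 ± 1.26 FPKM (SD, n = 4) rested on control animal 1. That library also had the highest Lcn2, which codes for a partner that binds Mmp9, of the 4 in region 4, at 3.02 FPKM against 0.158 to 0.338 FPKM.

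Mmp12 (ENSRNOG00000030187), macrophage metalloelastase, differed most between regions. It was at 6.70, 3.36, 2.61 and 13.7 FPKM under the implant and at 7.78, 3.37, 1.54 and 1.12 FPKM at the injury. In all 4 libraries of region 3, in 3 of 4 of region 5 and in 2 of 4 of region 2 it was listed at 0.1, and no library of these regions exceeded 0.584 FPKM. The places that held Mmp12 were thus the tissue beneath the electrodes and the injured segment, and their levels overlapped.

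Mmp3 (ENSRNOG00000032626), stromelysin-1, which cuts proteoglycans and can open other precursors, was low everywhere. Its highest values were those of region 1, at 0.417, 0.356, 0.527 and 1.12 FPKM, followed by region 4 at 0.165 to 0.299 FPKM, and no library elsewhere exceeded 0.224 FPKM. Mmp8 (ENSRNOG00000009907), neutrophil collagenase, was at 1.04, 0.979, 1.10 and 0.410 FPKM at the injury, at 0.1, 0.1, 1.01 and 1.37 FPKM in region 1, and no higher than 0.349 FPKM in the other regions. In region 1 it was thus at the lowest listed value in both controls and not in the stimulated animals. Mmp3 resembles other stromelysins in sequence, and how reads that fit several such genes were shared out is not given in the sources used here.

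Mmp3, Mmp8 and Mmp12 lie in the RefSeq annotation of a later rat assembly (GRCr8) in 1 run of neighbouring metalloproteinase genes. Promoter sequences of that build were matched to 6 of the 10 genes, namely Mmp3, Mmp8, Mmp12, Timp1, Timp2 and Timp3. The 120 bases before the annotated start are shown, on the strand of each gene, for the 3 genes of the run, since these were at the lowest listed value in some libraries and well above it in others, and for Timp1, the inhibitor that varied most. Capitals mark matches, on either strand, to the AP-1 motif TGANTCA, where N is any base, and to the TATA box motif TATAAA.

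Mmp12, plus strand, chr8:12866532-12866651: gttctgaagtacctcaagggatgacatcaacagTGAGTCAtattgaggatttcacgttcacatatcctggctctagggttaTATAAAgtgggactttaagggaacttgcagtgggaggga

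Mmp3, plus strand, chr8:12925161-12925280: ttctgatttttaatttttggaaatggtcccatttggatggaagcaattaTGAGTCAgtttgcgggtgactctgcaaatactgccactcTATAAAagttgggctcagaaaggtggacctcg

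Mmp8, plus strand, chr8:13008770-13008889: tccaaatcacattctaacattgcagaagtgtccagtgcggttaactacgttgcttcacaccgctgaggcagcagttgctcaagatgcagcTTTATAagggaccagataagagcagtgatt

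Timp1, minus strand, chrX:3771123-3771242: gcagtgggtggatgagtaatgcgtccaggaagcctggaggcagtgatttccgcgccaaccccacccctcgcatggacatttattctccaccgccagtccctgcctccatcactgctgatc

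Mmp12 and Mmp3 each held 1 AP-1 match, at 87 to 81 and 71 to 65 bases before the start, and 1 TATA match, at 39 to 34 and 32 to 27 bases before it. The matches did not overlap each other. Mmp8 held 1 match to the TATA letters, on the opposite strand, 30 to 25 bases before the start. No match to either motif was in the windows of Timp1, Timp2 and Timp3. Of 33469 promoters of the same length, 3.01% held the AP-1 letters, 6.66% the TATA letters and 0.269% both. The GC content of the windows was 41.7% for Mmp3, 44.2% for Mmp12 and 45.8% for Mmp8, and 59.2% for Timp1, 67.5% for Timp3 and 70.8% for Timp2. These matches describe the letters only.

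Timp2 (ENSRNOG00000003148), which inhibits Mmp2 and also takes part in its activation by Mmp14, had the highest level of the 10 genes in 20 of the 20 libraries, at 28.6 to 94.8 FPKM. Timp3 (ENSRNOG00000004303), which stays bound to the matrix and also inhibits ADAM proteases, was at 10.4 to 46.9 FPKM. Its levels in region 5 were 38.7, 32.3, 40.9 and 46.9 FPKM, and those of region 3 were 26.5, 24.5, 25.2 and 20.5 FPKM. Every caudal library was above every rostral one for Timp3, and every cord library was above every white matter library.

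Timp1 (ENSRNOG00000010208), the inducible inhibitor that binds Mmp9 and its precursor, varied more than the other inhibitors. At the injury it was at 39.7 and 31.1 FPKM in the controls and 35.6 and 23.7 FPKM in the stimulated animals. In region 3 the levels were 13.4, 7.92, 12.4 and 11.1 FPKM, all below region 4, and in region 5 they were 29.0, 26.9, 26.0 and 33.1 FPKM, which overlapped region 4. In the white matter it was at 12.5, 7.16, 9.79 and 59.1 FPKM in region 1 and at 1.61, 1.52, 1.49 and 35.7 FPKM in region 2. Stimulated animal 2 was the highest library in both white matter regions. Without that animal the region 2 mean was 1.54 ± 0.0652 FPKM (SD, n = 3) and the region 1 mean 9.82 ± 2.68 FPKM. In the reference annotation Timp1 overlaps Syn1 and Timp3 overlaps Syn3, both genes of neuronal synapsins, Timp2 overlaps Cep295nl, and the counting may or may not have used strand, so reads of the overlapping genes may not be told apart.

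**Figure D1:**
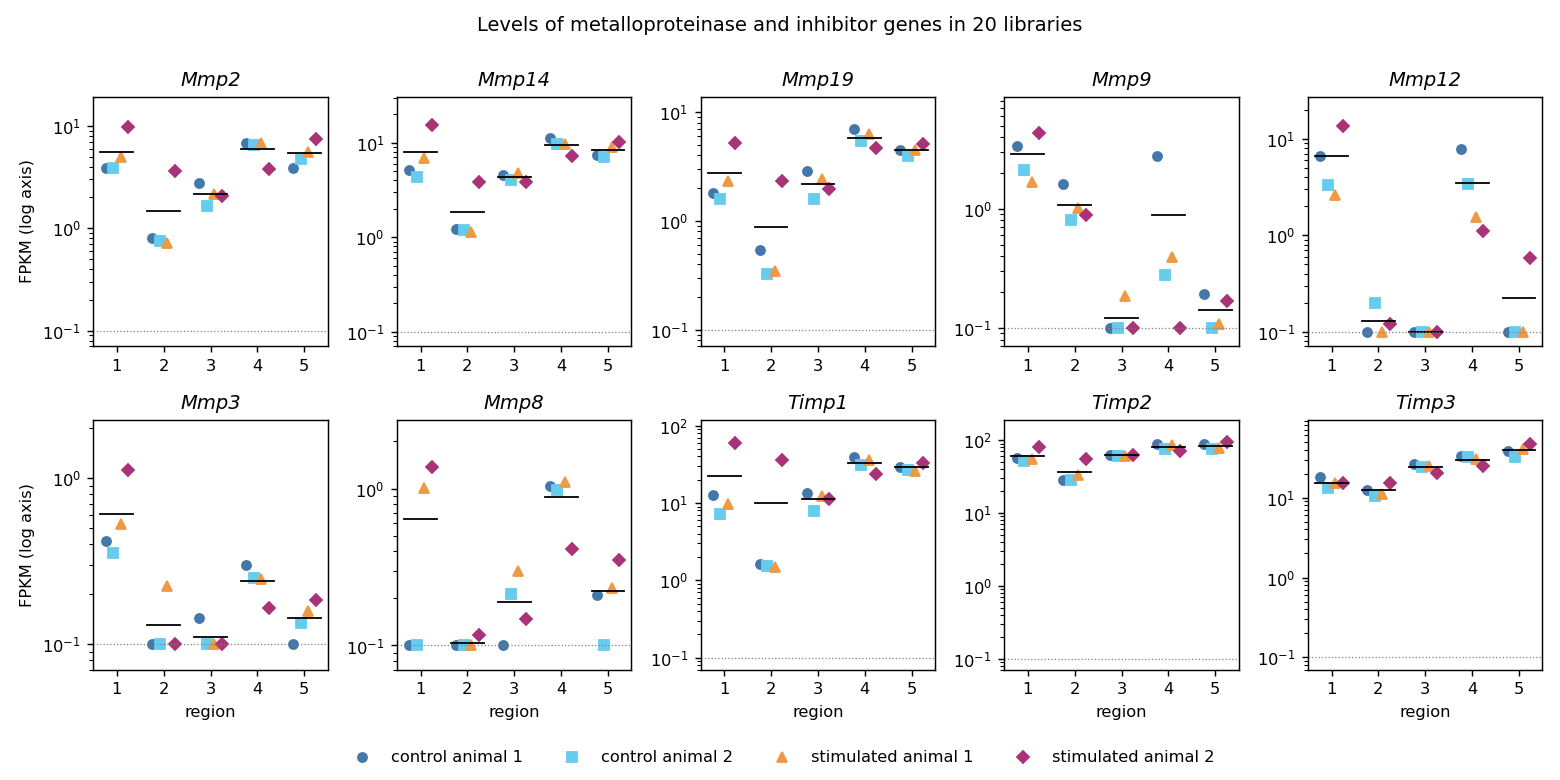
Level of each of the 10 genes in the 20 libraries, in FPKM on a log axis, by region. Symbols stand for the 4 animals, black lines for the mean of 4 libraries and the dotted line for the lowest value listed, 0.1; Mmp12 left that line mainly in regions 1 and 4, and stimulated animal 2 was the highest library for Timp1 in regions 1 and 2.

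In sums, the 3 inhibitors exceeded the 7 metalloproteinases in every library, by a ratio that differed between regions. The inhibitor sum was 3.93 ± 0.657 times the metalloproteinase sum in region 1 and 5.57 ± 1.03 times in region 4 (SD, n = 4 throughout). It was 10.9 ± 1.5 times in region 2, 10.7 ± 1.03 times in region 3 and 8.10 ± 1.01 times in region 5. The highest ratio in regions 1 and 4 was 6.81, below the lowest of the other regions, 7.30. The metalloproteinase sum was 26.7 ± 7.97 FPKM at the injury and 9.18 ± 1.34 FPKM rostral to it, while the inhibitor sum was 143 ± 18.5 and 97.0 ± 5.16 FPKM. The ratio compares transcripts, not proteins, and was not tested.

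**Figure D2:**
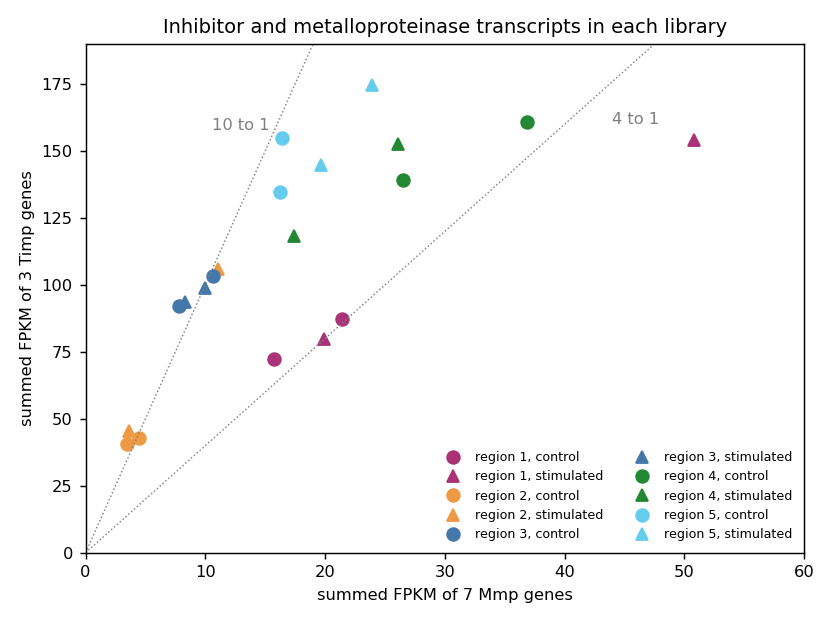
Summed FPKM of the 3 inhibitors against that of the 7 metalloproteinases, 1 point per library, with dotted lines at 4 to 1 and 10 to 1. Libraries of region 1 lie near or below the lower line, those of regions 2 and 3 near the upper one, and those of regions 4 and 5 between the lines.

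The injured segment was then compared with the segments on either side, with limma on log2 FPKM over all 20 libraries and adjustment over the 15210 genes. Against the rostral segment, 5 of the 10 genes were higher at the injury and 0 were lower at an adjusted p under 0.05, where 6.78% of all genes were called higher and 12.8% lower. The 10 genes had a median log2 fold change of 1.44, and all genes together one of -0.02. Upper-quartile scaling changed the calls over all genes from 1031 higher and 1953 lower to 2116 and 2487, and 8 of the 10 genes were then called higher and 0 lower. Mmp12 rose most, with a log2 fold change of 4.70 ± 0.63 (SE, adjusted p = 0.000164), a value that depends on the listed minimum of region 3. Set library against library in the same animal, its level was at least 11.2 to 77.8 times as high at the injury. Mmp8 was higher by 2.24 ± 0.72 (adjusted p = 0.0354), Mmp2 by 1.45 ± 0.42 (adjusted p = 0.0216), Mmp19 by 1.43 ± 0.46 (adjusted p = 0.0362) and Mmp14 by 1.12 ± 0.36 (adjusted p = 0.0354) on the log2 scale. Mmp8 had reached 1 FPKM in 2 libraries of region 4 and 2 of region 1. It thus entered the test through regions where it was high, and with no filter it was not called (limma, adjusted p = 0.0807). Nor were Mmp2, Mmp14 and Mmp19. Mmp12 too had entered the test only through regions 1 and 4, where it was high. With no filter Mmp12 was the only gene of the set called, against 2.42% of all genes called higher.

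The 5 genes that missed the threshold had fold changes above 0 as well, from 0.31 for Timp3 to 1.84 for Mmp9. In limma 4 of them had an unadjusted p under 0.05, as did 5279 of the 15210 genes tested, in either direction. Timp1 differed by 1.54 ± 0.77 on the log2 scale (limma, adjusted p = 0.163). By libraries, 8 of the 10 genes did not overlap between regions 4 and 3, against 13.0% of all genes. In each of the 4 animals, 9 of the 10 were higher at the injury, a pattern whose share of all genes was not counted. Mmp9 was the exception, since it was at 0.1 in both regions of stimulated animal 2. With the animal as a block, Mmp9 passed as well (adjusted p = 0.0394).

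These calls depended on the spread that the 20 libraries share. When the region 2 library of stimulated animal 2 was left out, 9 of 10 genes were called higher, all but Timp3, against 11.9% of all genes, and Timp1 had an adjusted p of 0.0129. In the 8 libraries of regions 3 and 4 alone, 8 of 10 were called higher, against 13.2% of all genes, with Timp1 at an adjusted p of 0.0037. Without stimulated animal 2 all 10 were called, against 15.7% of all genes, and without any other animal Mmp12 was the only member called, against 0.874 to 1.45% of all genes. The summed macrophage and microglia markers moved with these genes, at 215 to 508 FPKM in region 4 and 91.5 to 126 FPKM in region 3 over 7 of 7 markers, and their part in the differences was not tested. Neutrophil markers overlapped, at 4.77 to 31.3 FPKM in region 4 and 5.91 to 14.0 FPKM in region 3. Astrocyte markers were higher at the injury without overlap, with sums of 1911 to 2704 FPKM against 1227 to 1671 FPKM, as were Schwann cell markers, at 78.8 to 118 FPKM against 13.8 to 64.5 FPKM. Fibroblast markers were at 39.4 to 72.1 FPKM against 27.4 to 41.1 FPKM, which overlap. Neuron markers were lower at the injury without overlap, at 372 to 466 FPKM against 599 to 783 FPKM, and spinal cord neuron markers were at 63.7 to 75.2 FPKM against 92.6 to 106 FPKM. In tissue pieces of this kind, fewer cells of a type and less RNA per cell cannot be told apart.

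Between the injury and the caudal segment fewer genes of the set differed. Mmp12 was called higher at the injury, by 4.06 ± 0.63 on the log2 scale (adjusted p = 0.00321), and 0 genes were called lower, against 0.934% higher and 7.06% lower over all genes. Mmp12 had entered the test only through regions 1 and 4, where it was high. With no filter it was still called, against 0.397% of all genes called higher. Its fold change depends on the listed minimum, at which 3 of the 4 libraries of region 5 stood. The median was 0.26 over the set and -0.14 over all genes tested. With quantile normalization the latter was -0.03, and 142 higher and 1074 lower calls over all genes became 195 and 275, with Mmp12 still the only call in the set. Mmp8 was the only other gene without overlap between regions 4 and 5, where 1.84% of all genes did not overlap in that direction, and its difference was 2.02 ± 0.72 (limma, adjusted p = 0.0792). Mmp14, Mmp2, Mmp19, Timp1 and Timp2 differed by -0.06 to 0.37, and the 95% interval for Mmp14 ran from -0.60 to 0.91. Timp3 was lower at the injury in each of the 4 animals, by 0.40 on the log2 scale (log2 fold change -0.40 ± 0.14), and was not called (limma, unadjusted p = 0.00888, adjusted p = 0.0709). The call for Mmp12 was lost without control animal 1 (adjusted p = 0.121) and without control animal 2 (adjusted p = 0.0668). Neuron markers were lower at the injury without overlap, at 372 to 466 FPKM against 496 to 620 FPKM, and macrophage and microglia markers overlapped, at 215 to 508 FPKM against 178 to 258 FPKM. Their part was not tested.

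The caudal segment was compared with the rostral one as well. Timp3 was called higher caudally, by 0.71 ± 0.14 on the log2 scale (limma, adjusted p = 0.00792), and 0 genes were called lower, against 2.77% higher and 1.55% lower over all genes. The median was 0.67 over the set and 0.11 over all genes, or -0.02 over all genes with quantile normalization, which turned 422 higher and 235 lower calls into 435 and 674 and left 1 call in the set. Mmp2, Mmp14, Mmp19, Timp1, Timp2 and Timp3 were higher caudally in each of the 4 animals and without overlap of the libraries, a pattern that 20.5% of all genes shared. Without the region 2 library of stimulated animal 2 these 6 genes were called, against 8.19% of all genes. The call for Timp3 was lost without control animal 1 (adjusted p = 0.0541) and without stimulated animal 1 (adjusted p = 0.108). Mmp12 was near the lowest listed value on both sides of the injury, whereas the caudal levels of Mmp2, Mmp14, Mmp19 and Timp1 overlapped those at the injury. Fibroblast and Schwann cell markers were also higher caudally, with sums of 48.0 to 151 and 86.5 to 236 FPKM in region 5 against 27.4 to 41.1 and 13.8 to 64.5 FPKM in region 3. Macrophage and microglia markers were at 178 to 258 FPKM against 91.5 to 126 FPKM and astrocyte markers at 2233 to 2580 FPKM against 1227 to 1671 FPKM. None of these 4 marker sums overlapped between the segments, and their part in the differences was not tested.

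The tissue beneath the implant was compared with the same tissue of the other hemisphere, which held no electrode. Of the 10 genes, 6 were higher in region 1 and 0 lower, against 6.86% and 1.76% of all genes. Mmp12 was higher by 5.43 ± 0.63 on the log2 scale (adjusted p = 0.000194), Mmp2 by 2.21 ± 0.42 (adjusted p = 0.00542) and Mmp3 by 2.15 ± 0.41 (adjusted p = 0.00576). Mmp14 was higher by 2.13 ± 0.36 (adjusted p = 0.003), Mmp19 by 1.98 ± 0.46 (adjusted p = 0.0149) and Timp2 by 0.79 ± 0.17 (adjusted p = 0.0102). The median was 2.06 over the set and 0.06 over all genes. With quantile normalization the latter was -0.05, 1043 higher and 267 lower calls over all genes became 943 and 841, and again 6 genes of the set were called higher and 0 lower. Mmp12 entered the test only through regions 1 and 4, where it was high. With no filter it was still called, against 1.6% of all genes called higher. Its fold change depends on the listed minimum, at which 2 of the 4 libraries of region 2 stood. Mmp3 entered the test through 1 library, that of stimulated animal 2 in region 1, where it was high. With 1 FPKM asked of at least 2 libraries Mmp3 was not tested and 5 genes of the set were called, and with no filter it was called (adjusted p = 0.00527).

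Timp1 differed by 2.16 ± 0.77 and missed the threshold (limma, adjusted p = 0.0859), and passed it with the animal as a block (adjusted p = 0.0489). Without the region 2 library of stimulated animal 2 its difference was 3.29 ± 0.45 (adjusted p = 5.99e-05), and 8 of 10 genes were called higher, as were 3043 of the 15210 genes tested. By libraries, 5 of the 10 did not overlap (Mmp2, Mmp3, Mmp9, Mmp12 and Mmp14), against 4.40% of all genes. In each of the 4 animals, 8 of 10 were higher in region 1, a pattern whose share of all genes was not counted. In the 8 libraries of regions 1 and 2 alone, no gene of the 15210 was called, and Mmp12 had an adjusted p of 0.0509. Leaving out control animal 1 or stimulated animal 1 left Mmp12 as the only call in the set, against 0.46% and 0.0855% of all genes called higher. Leaving out control animal 2 left Mmp12 and Mmp14, against 0.368%, and leaving out stimulated animal 2 gave 8 calls, against 21.6%, so that the count in the set moved with the count over all genes. Macrophage and microglia markers summed to 122 to 622 FPKM in region 1 and 41.1 to 282 FPKM in region 2. Without stimulated animal 2 the ranges were 122 to 192 and 41.1 to 51.6 FPKM, and without it astrocyte markers were at 645 to 1071 FPKM against 262 to 315 FPKM and fibroblast markers at 30.8 to 50.5 FPKM against 8.28 to 12.2 FPKM. Oligodendrocyte markers were higher in region 1 without overlap in all 4 animals, at 1393 to 2778 FPKM against 662 to 1285 FPKM. The part of these cells in the differences was not tested. Implant, hemisphere and the side of the injury changed together between these regions and cannot be told apart.

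**Figure D3:**
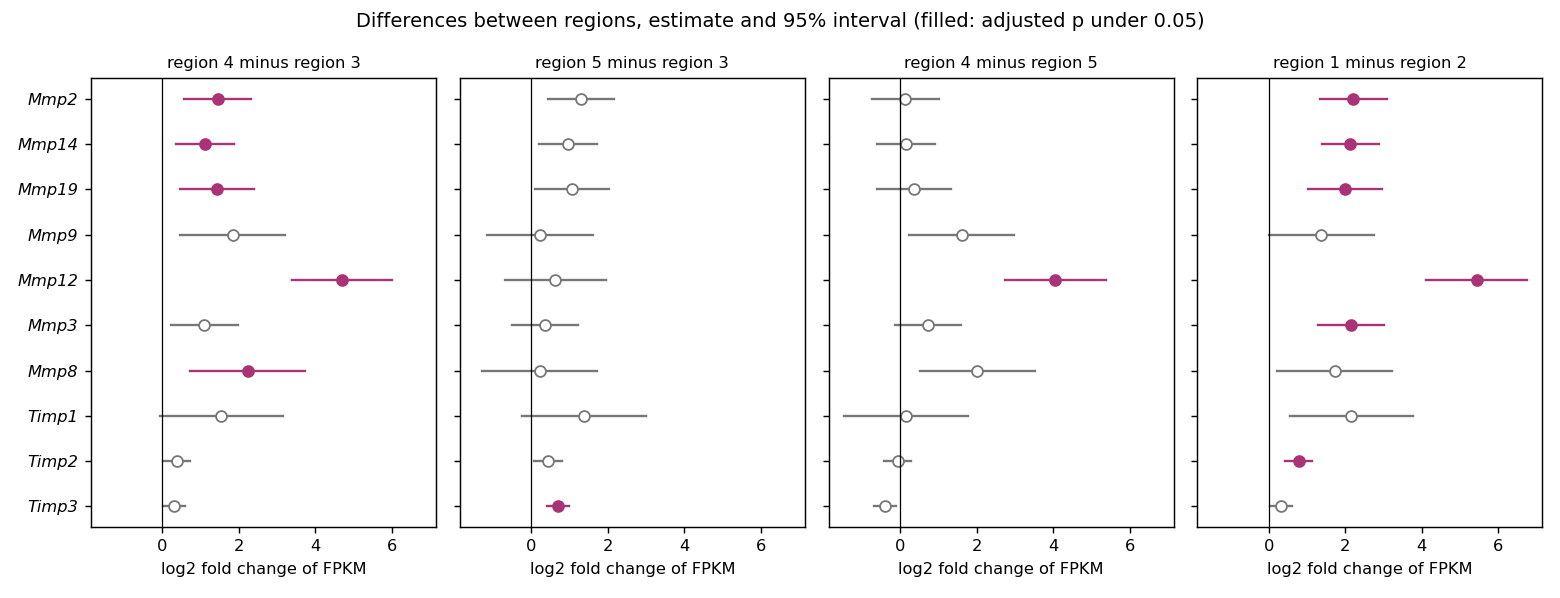
Log2 fold change of FPKM between regions for the 10 genes, with 95% intervals from limma; filled points mark an adjusted p under 0.05. Mmp12 is far to the right in 3 of the 4 panels, and the intervals of Timp1 are the widest.

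Between the 8 white matter and the 12 cord libraries the set divided. Mmp9 was higher in the white matter by 3.15 ± 0.42 on the log2 scale (adjusted p = 2.05e-06), Mmp12 by 1.24 ± 0.40 (adjusted p = 0.0101) and Mmp3 by 0.75 ± 0.27 (adjusted p = 0.0166). Mmp19 was lower there by 1.64 ± 0.30 (log2 fold change -1.64, adjusted p = 6.69e-05), and lower values were also found for Timp1 (log2 fold change -1.60 ± 0.50, adjusted p = 0.00758) and Timp3 (-1.16 ± 0.09, adjusted p = 7.15e-10). Mmp14 (-1.07 ± 0.23, adjusted p = 0.000443), Mmp2 (-0.74 ± 0.27, adjusted p = 0.0201) and Timp2 (-0.70 ± 0.11, adjusted p = 1.29e-05) were lower as well. Mmp8 differed by -0.71 ± 0.46 and was not called (adjusted p = 0.177). Mmp3 had entered the test through 1 white matter library, that of stimulated animal 2 in region 1, so it was not tested with 1 FPKM asked of 2 libraries, and with no filter it was called (adjusted p = 0.0108). In region 2 Mmp12 did not exceed 0.196 FPKM and Mmp3 did not exceed 0.224 FPKM. The calls for Mmp2 and Timp1 were lost without control animal 1, without control animal 2 and without stimulated animal 1, that for Mmp12 without control animal 2 and that for Mmp3 without stimulated animal 1. The 3 higher and 6 lower calls stand against 25.0% and 47.1% of all genes, so that most genes of any kind differed between the tissues. Astrocyte markers, at 262 to 1223 FPKM in the white matter and 1227 to 2704 FPKM in the cord, did not overlap either, and their part was not tested. The median of all genes was -0.18 and moved to -0.04 with quantile normalization, which turned 3808 higher and 7169 lower calls over all genes into 5054 and 6018, and under which Mmp2 missed the threshold (adjusted p = 0.0510).

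Stimulation was tested within each region, with 2 stimulated against 2 control libraries. None of the 10 genes passed the threshold in limma in any region, and of all genes 0.0%, 0.0%, 0.0%, 0.0% and 0.0197% passed in regions 1 to 5. At an unadjusted p under 0.05 in limma there were 1, 0, 0, 1 and 3 genes of the set. Of the 15210 genes tested there were 828, 215, 522, 341 and 546. An exact permutation test of 2 against 2 animals cannot give a two-sided p below 0.333.

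In region 1, stimulated libraries were above control libraries without overlap for 5 of the 10 genes (Mmp2, Mmp3, Mmp8, Mmp14 and Mmp19) and below for 0, against 21.2% and 19.5% of all genes. Mmp8 was listed at 0.1 in both controls and at 1.01 and 1.37 FPKM in the stimulated animals. Its log2 fold change was 3.55 ± 0.23 (SE), a value that depends on the listed minimum. Mmp8 had the smallest unadjusted p of the set (0.000149 in limma, adjusted p = 0.712). In that test the controls had no spread because both were at the listed minimum. Mmp14 differed by 1.13 ± 0.45 (SE, log2 scale, adjusted p = 0.712) and Mmp19 by 1.04 ± 0.45 (adjusted p = 0.712), and for both genes stimulated animal 2 was further above the controls than stimulated animal 1. Mmp8 passed when either stimulated animal was left out in limma (adjusted p = 0.00385 without stimulated animal 1 and 0.0489 without stimulated animal 2), but that fit set 1 library against 2 controls at the listed minimum and measured no spread of this gene, so these values support nothing. The 6 neutrophil markers summed to 3.11 and 1.52 FPKM in the controls, 2.85 FPKM in stimulated animal 1 and 119 FPKM in stimulated animal 2, with Mpo at 0.1 in all 4. Macrophage and microglia markers were higher in both stimulated animals, at 192 and 622 FPKM against 159 and 122 FPKM, as were astrocyte markers, at 1071 and 1223 FPKM against 645 and 695 FPKM. Neuron markers were lower in both, at 930 and 593 FPKM against 997 and 994 FPKM. Fibroblast markers overlapped, at 50.2 and 152 FPKM against 50.5 and 30.8 FPKM. The part of these cells was not tested.

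In region 4 the direction was the other way. All 10 fold changes were below 0, with a median of -0.36 against 0.00 over all genes. Stimulated animal 2 was the lowest library of the region for each of the 10 genes. Stimulated animal 1 was below both controls only for Mmp3, Mmp12 and Timp3, so the shared direction rested largely on 1 animal. The share of all genes with that pattern was not counted. These 3 genes were lower without overlap and 0 higher, against 7.69% and 12.5% of all genes. Mmp12 was at 7.78 and 3.37 FPKM in the controls and 1.54 and 1.12 FPKM in the stimulated animals, a log2 fold change of -1.96 ± 0.48 (limma, unadjusted p = 0.0147, adjusted p = 1.0). Without control animal 2, Mmp12 and Mmp9 were called lower, against 0.546% of all genes, with 1 control library left. The macrophage and microglia markers were at 508 and 359 FPKM in the controls and 390 and 215 FPKM in the stimulated animals, which overlap, and Cd68 was at 45.2, 32.6, 31.9 and 13.1 FPKM. Fibroblast markers were lower in both stimulated animals, at 61.2 and 39.4 FPKM against 72.1 and 66.6 FPKM, as were Schwann cell markers, at 82.1 and 78.8 FPKM against 107 and 118 FPKM. Neutrophil markers were higher in both, at 31.3 and 5.97 FPKM against 5.46 and 4.77 FPKM. The part of these cells was not tested.

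In region 5, 5 genes (Mmp2, Mmp3, Mmp8, Mmp14 and Timp3) were higher without overlap and 0 lower, against 18.5% and 6.07% of all genes, with differences of 0.31 to 0.97 on the log2 scale. Schwann cell markers were also higher in both stimulated animals of that region, at 236 and 233 FPKM against 109 and 86.5 FPKM, and so were fibroblast markers, at 90.6 and 151 FPKM against 51.9 and 48.0 FPKM. Neutrophil markers were at 10.5 and 9.67 FPKM against 8.10 and 4.06 FPKM, and neuron markers were lower, at 496 and 500 FPKM against 620 and 540 FPKM. The part of these cells was not tested. In region 2, Timp2 alone was higher without overlap and 0 were lower, against 20.2% and 6.77%, and Timp1 differed by 2.22 ± 1.73, with its stimulated libraries at 1.49 and 35.7 FPKM. In region 3 no gene of the set was without overlap in either direction, against 5.14% higher and 24.7% lower over all genes, and the differences ran from -0.26 to 0.52. Whether the stimulation effect differed between regions was tested on differences within each animal, and 0 of the 10 genes and 0.0% of all genes passed for region 1 against 2, 4 against 3, 4 against 5 and 5 against 3. Mmp8 had the only unadjusted p under 0.05 among these, for region 1 against 2 (0.00327 in limma, adjusted p = 0.88). In that test both its controls were at the listed minimum in both regions. There, 643 of the 15210 genes tested had an unadjusted p under 0.05. For Mmp12 the effect in region 4 differed from that in region 3 by -1.96 ± 1.32 (limma, adjusted p = 0.928). Mmp12 was at 0.1 in all 4 libraries of region 3, so this difference equals the effect in region 4 and compares no measured effect of region 3.

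**Figure D4:**
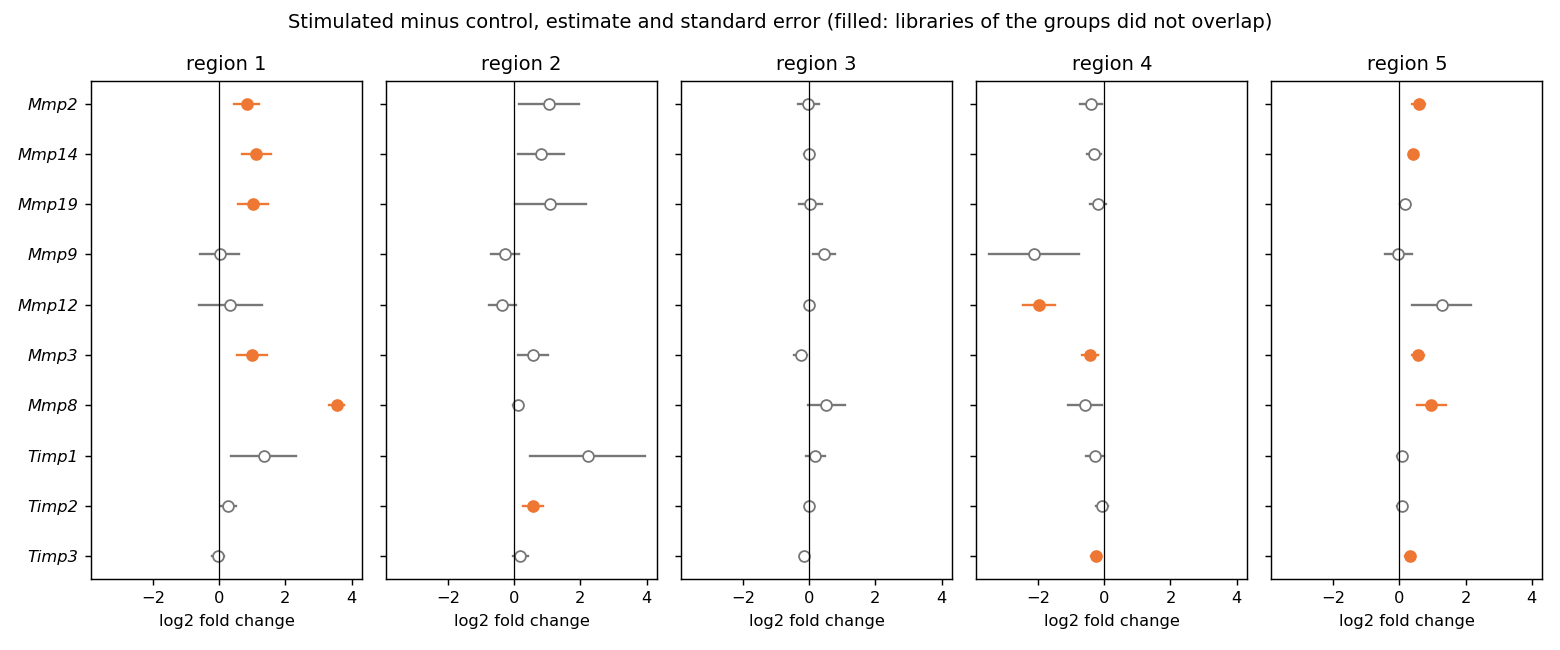
Log2 fold change of stimulated over control libraries in each region, with standard errors from limma, 2 animals per group; filled points mark genes whose libraries did not overlap. Filled points lie to the right of 0 in regions 1, 2 and 5 and to the left in region 4, and no gene passed the adjusted threshold.

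Of 43 further genes of matrix proteolysis, 42 were listed and 33 were tested. At the injury against the rostral segment, 7 were higher and 1 lower, where 6.78% and 12.8% of all genes were. In the plasminogen system, whose product plasmin can open metalloproteinase precursors, 2 of 5 tested were higher and 0 lower. Plau, the urokinase activator of plasminogen, rose from 0.444 to 0.723 FPKM in region 3 to 1.54 to 4.62 FPKM in region 4, by 2.45 ± 0.58 on the log2 scale (adjusted p = 0.00745). Plaur, its receptor, rose by 2.36 ± 0.63 (adjusted p = 0.0144). Among Adam and Adamts proteases 3 of 14 were higher and 0 lower, namely Adam12 by 1.68 ± 0.30 (adjusted p = 0.00113), Adamts15 by 1.40 ± 0.27 (adjusted p = 0.00185) and Adam10 by 0.35 ± 0.12 (adjusted p = 0.0434). Furin, a protease that opens the Mmp14 precursor, was the 1 of 3 activators and partners called, at 0.46 ± 0.14 (adjusted p = 0.029), and Lrp1, a receptor that clears proteases, was the 1 of 4 other inhibitors and clearance genes called. Of the 7 other Mmp genes tested, Mmp24, a membrane-type protease of neurons, was lower and 0 were higher.

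In the other comparisons between regions, the further genes gave 1 higher and 2 lower calls for region 4 against 5 (Adam12 higher, Mmp24 and Bsg lower), against 0.934% and 7.06% of all genes. For region 5 against 3 they gave 2 higher and 0 lower (Reck and Mmp15), against 2.77% and 1.55%, or 5 higher with the animal as a block, against 4.05%. For region 1 against 2 they gave 12 higher and 0 lower, against 6.86% and 1.76%, which were 8 of 14 Adam and Adamts proteases, 2 of 5 of the plasminogen system (Plau and Plaur), 2 of 4 other inhibitors and clearance genes (A2m and Lrp1), 0 of 3 activators and partners and 0 of 7 other Mmp genes. For white matter against cord they gave 5 higher and 18 lower, against 25.0% and 47.1% of all genes, with 3 of 7 other Mmp genes higher and 3 lower. For stimulation they gave 0 calls in any region. Plau, Plaur and Lrp1 were called both at the injury against the rostral segment and under the implant against the other hemisphere. The same held for Mmp2, Mmp12, Mmp14 and Mmp19 of the set. Within region 1, Plau, Plaur and these members of the set were highest in the library of stimulated animal 2.

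Across the 20 libraries, the pairs of the set with the highest Pearson correlation of log2 FPKM were Mmp19 with Timp2 (0.966), Mmp2 with Mmp14 (0.966) and Mmp14 with Mmp19 (0.965). Mmp9 stood apart, with values from -0.61 with Timp3 to 0.66 with Mmp3. The genes of the whole table most like each member were Ctsk, Fabp4 and Siglec1 for Mmp12, with correlations of 0.898, 0.894 and 0.879, and Cp, Ifitm3 and Tspo for Timp1, with 0.994, 0.992 and 0.989. For Mmp14 they were Gadd45a, Emp3 and Ano6 (0.977 to 0.979), for Mmp2 Anxa1, Mmp14 and Atf3 (0.964 to 0.975), and for Mmp19 Zc3hav1, Piezo1 and Tep1 (0.987 to 0.988). For Timp2 they were Glipr2, Tsku and Cotl1, for Timp3 Atp1b3, Itga7 and Col8a2, for Mmp9 Plxna1, Dtx4 and AABR07025023.1, for Mmp8 Gdf15, AABR07062185.2 and Adam12, and for Mmp3 Dgat2, Mmp12 and Ccl9. These values share tissue, animal and library, so they describe likeness over 20 libraries of 4 animals and were not tested.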

How the data were processed

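RNA was measured in 20 libraries, 1 from each of 5 regions of 4 rats. The authors depleted ribosomal RNA, sequenced 51-bp read pairs, aligned them to Rnor6 with TopHat2 2.1.0 and estimated expression with Cufflinks 2.2.1, per the labels and the study's methods. The authors deposited FPKM values per gene, with values under 0.1 raised to 0.1. The library kit keeps strand. The study states that its tools were run with default parameters and does not name the strand setting used in counting. The study gives read numbers and mapping rates for each library, but FPKM gives no count of reads for a gene. Intervals for regions reflect the spread that all 20 libraries share, and those for stimulation the spread between animals.

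Genes with at least 1 FPKM in any library were kept. Log2 FPKM was fitted with limma 3.58.1 in R 4.3.3 (eBayes with trend), with a mean per region over all 20 libraries for regions, within each region's 4 libraries for stimulation, and on within-animal differences for differences of effects. P-values were adjusted by Benjamini-Hochberg over 15210 genes at a threshold of 0.05, and the fits were tested on simulated data. Group labels come from the sample titles. Libraries of different regions with the same number come from the same animal, and deviations from region means correlated within animals at -0.03 to 0.59 for pairs of regions. Sequences came from RefSeq tables (GRCr8), a later build than that of the files. Other steps used Python 3.11.15, pandas 2.3.3, numpy 2.4.6 and matplotlib 3.10.9.

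The members and gene lists were chosen with earlier results of these data known. All 10 members are named. Fold changes are given for members past the threshold between regions and, for stimulation, for members that passed or did not overlap with an absolute log2 fold change of at least 1 and whose mean reached 1 FPKM in either group. Some fold changes outside this rule are given too, such as that of Timp1 for stimulation in region 2. Of other pathway genes, the 6 with the largest called change between regions 4 and 3 are named, and likeness names the 3 genes of highest correlation. Genes named beyond these were chosen after their values were seen. Alternatives were other filters, a pseudocount of 1, 2 scalings, other models, blocks and leaving out each animal. The fits in the compared regions alone and without the region 2 library of stimulated animal 2 were chosen after seeing the data.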

Additional observations from a re-analysis of the deposited data

Results flagged for a closer look

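Among the 33 groups of 4 libraries, 1 gene in 1 region each, whose mean was at least 1 FPKM, 6 had a highest or lowest library whose gap to the next exceeded Dixon's 95% critical value. Chance flags about 1 in 20 groups of independent, normally distributed values. Genes of the same libraries are not independent (Mmp2 and Mmp14 correlated at 0.966), so the count cannot be set against that rate. All 6 were libraries of stimulated animal 2. In region 2, Mmp2 was at 3.63 FPKM (the other 3 libraries at 0.718 to 0.808), Mmp14 at 3.88 FPKM (1.12 to 1.21), Timp1 at 35.7 FPKM (1.49 to 1.61) and Timp2 at 55.0 FPKM (28.6 to 32.8). In region 1, Timp1 was at 59.1 FPKM (7.16 to 12.5). In region 4, Mmp2 was the lowest library, at 3.77 FPKM (6.46 to 6.88). The cause was not tested.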

How the results depend on the processing

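Of 429 recalculated log2 fold changes of named genes, 361 kept their direction and call, 65 lost the call, 3 gained it and 0 reversed. Members called higher for region 4 against 3 were 1 with no filter and 8 with upper-quartile scaling (reported 5). Of all genes, 2.42% and 13.9% were called higher. Members called were 8 in the 8 libraries compared and 9 without the region 2 library of stimulated animal 2, against 13.2% and 11.9%. Leaving out 1 animal gave 1 to 10 for region 4 against 3 (0.874 to 15.7% of all genes). It gave 0 to 2 for region 4 against 5 (0.0 to 2.87%) and 0 to 6 for region 5 against 3 (0.237 to 5.4%). It gave 1 to 8 for region 1 against 2 (0.0855 to 21.6%). For region 4 against 5 the count was 2 with a mean for each region and group and 2 in the libraries compared. Of all genes, 0.552% and 0.605% were called higher. For region 5 against 3 it was 6 in the libraries compared and 6 without the region 2 library of stimulated animal 2. There, 17.7% and 8.19% of all genes were called higher. For region 1 against 2 it was 0 in the libraries compared, against 0.0% of all genes. Members past the threshold for stimulation were reported as 0. When 1 animal was left out, the lone library of a group was assumed to vary like the other group. Members called in such fits were Mmp8 (regions 1 and 2), Timp1 (region 2), Mmp9 (region 4) and Mmp12 (regions 4 and 5). More of all genes were called in the same fits as well, so these calls are not read as results about the members. The controls of Mmp8 in regions 1 and 2 and those of Mmp12 in region 5 were all at 0.1. The calls for these genes in those regions thus rest on no measured spread.

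Other pathway genes for region 4 against 3 (7 higher, 1 lower) were 16 higher and 2 lower in the libraries compared, 11 higher without the region 2 library, 4 with no filter, 12 higher and 3 lower with quantile normalization, 2 lower with upper-quartile scaling and 2 lower with log2(FPKM + 1), and 2 to 17 higher and 0 to 2 lower without 1 animal. For region 4 against 5 (1 higher, 2 lower) they were 2 higher and 0 lower in the libraries compared and under both scalings, 0 and 0 with no filter, 0 lower with a mean for each region and group, 1 lower without trend, and 0 to 5 higher and 0 lower without 1 animal. For region 5 against 3 (2 higher) they were 17 in the libraries compared, 8 without the region 2 library, 0 with no filter, 1 under both scalings, with a mean for each region and group and without trend, 5 with the animal as a replicate block and 0 to 5 without 1 animal. For region 1 against 2 (12 higher, 0 lower) they were 0 in the libraries compared, 21 without the region 2 library, 4 with no filter, 6 with log2(FPKM + 1), 1 lower under both scalings, and 0 to 20 higher without 1 animal.

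With the animal as a replicate block, the calls gained by Mmp9 for region 4 against 3 and by Timp1 for region 1 against 2 were the only changes among members. Stimulated and control animals share only a number, with correlations of their deviations of -0.21 to 0.32. Blocking on it gave 3 members in region 5 (Mmp3, Mmp8 and Mmp12, reported 0) and 0 in the other regions. In region 5, 2.12% of all genes were then called higher, and Mmp12 was at 0.1 in 3 of its 4 libraries. Precision is limited by 4 animals and by values at 0.1, which made up 28 of 200 member values.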
